A study of Mus musculus with 3 samples.

Results

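Abcc9, Kcnj8, Trpc6, Kcnq5, Kcnab1, Rgs4, Rgs5, Rgs6 and Rgs16 are 5 ion channel and 4 RGS genes listed as genes of pericytes, and they are 9 of the 32293 features counted in 3 single-cell libraries of the aged mouse thymus. They were chosen by their measured levels in mural barcodes of these same libraries, with earlier results in view, and were taken by symbol. Their levels, shares and ratios are therefore descriptions, and no test is given for any of them.

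Pericytes and vascular smooth muscle cells are the mural cells that wrap small and larger vessels, and both set vessel tone. The ATP-sensitive potassium channel of these cells is built from the pore subunit Kir6.1, encoded by Kcnj8, and the sulfonylurea receptor SUR2, encoded by Abcc9, and its opening makes the cell less excitable. Trpc6 encodes a receptor-operated cation channel, Kcnq5 encodes the voltage-gated potassium channel Kv7.5, and Kcnab1 encodes an auxiliary beta subunit of voltage-gated potassium channels. RGS proteins speed the hydrolysis of GTP by G alpha subunits and so shorten the signal of the receptors for vasoactive agents, and Rgs5 is a widely used pericyte marker.

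The libraries were made from thymic stroma depleted of CD45+ cells, from untreated C57BL/6 mice of 20 months. Each group was 1 library from pooled thymi (10 to 15 per the labels), and the groups were Foxn1Lin female, Foxn1Lin male and male of wild type. Foxn1Lin is a Foxn1 lineage trace, in which Foxn1-cre switches on a CAG-driven tdTomato reporter at ROSA26 and so marks the epithelial lineage rather than mural cells. With 1 library per group, sex, genotype and library cannot be told apart, the libraries were not tested against each other, and all intervals below are 95% intervals that cover counting error only. The protocol in the labels names female mice for every library although 2 are labelled male, and the cell type label of the wild type library adds PECAM1+ although it held 1211 barcodes with at least 2 Epcam UMIs and 1823 with at least 2 Pdgfra UMIs. Called barcodes held 53366016, 33386621 and 61258534 UMIs in the Foxn1Lin female, Foxn1Lin male and wild type male library, and values are given in this order throughout. The libraries shared 3 to 14 barcode sequences per pair, of which 1 was mural.

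Mural barcodes had at least 2 UMIs of Notch3 and Cspg4 together and none of Pecam1 or Epcam. They were split into Myh11-high barcodes (at least 2 UMIs of the smooth muscle myosin gene Myh11; 255, 321 and 319) and Myh11-0 barcodes (none; 294, 187 and 252), with 65, 52 and 61 barcodes at 1 Myh11 UMI left between them. For comparison, fibroblasts (FB) had at least 2 Pdgfra UMIs, endothelial cells (EC) at least 2 Pecam1 UMIs and thymic epithelial cells (TEC) at least 2 Epcam UMIs. Levels are given as CPM, the UMIs of a gene scaled to 1e+06 UMIs summed over the barcodes of a class in a library.

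The label pericyte did not hold for most Myh11-0 mural barcodes. Pdgfra, the gene that defines FB here, was detected in 55.8%, 56.7% and 66.7% of them, and 141, 90 and 152 of them also met the FB gate. The median level of Dcn, a collagen-binding proteoglycan of fibroblasts, was 5094, 7548 and 5712 CPM in these barcodes, against 8209, 12071 and 9561 CPM in FB. Summed over 7 FB markers without Pdgfra, the level was 12348, 11509 and 10819 CPM in Myh11-0 barcodes and 1442, 2091 and 2863 CPM in Myh11-high barcodes. After these values were seen, the Myh11-0 barcodes without a Pdgfra UMI and with Dcn under 1500 CPM were set apart and are called Dcn-low Myh11-0 barcodes. They were 98, 57 and 57 barcodes, 212 of 733 in all. The share was 33.3%, 30.5% and 22.6%.

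**Figure D1:**
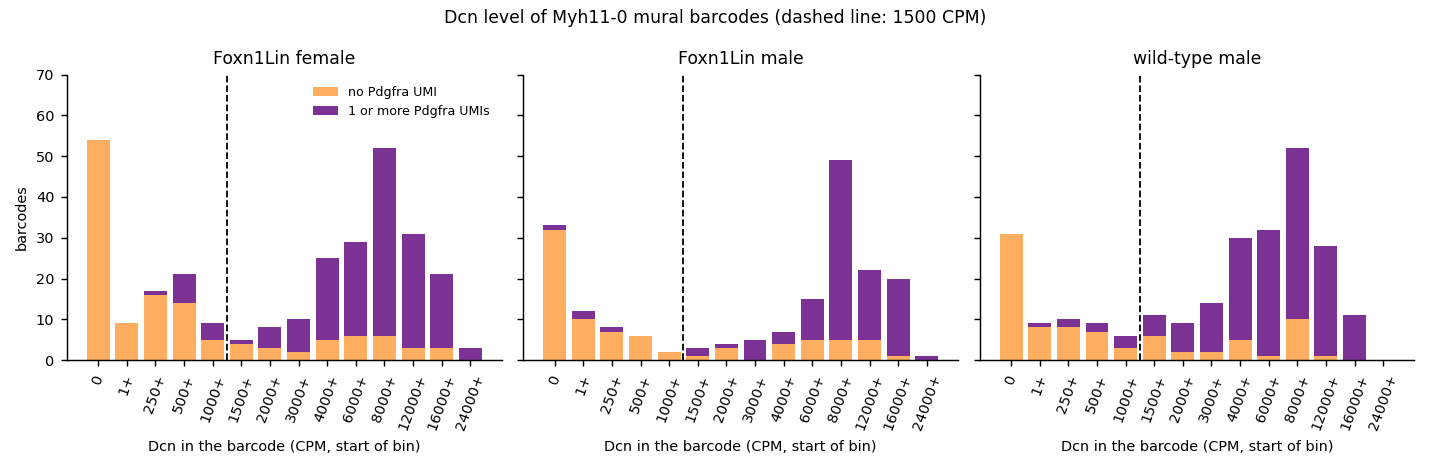
Number of Myh11-0 mural barcodes (y axis) by their Dcn level in CPM (x axis, bins of unequal width named by their lower bound) in each library, with barcodes without and with a Pdgfra UMI stacked in 2 colours and the limit of 1500 CPM as a dashed line. Barcodes fall at both ends of the axis, and the 98, 57 and 57 Dcn-low barcodes are those left of the line without Pdgfra.

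In the Dcn-low Myh11-0 barcodes the pericyte and the smooth muscle markers both summed to more than in FB. Their 12 pericyte markers without the gate genes summed to 5891, 3342 and 3184 CPM, against 3364, 3473 and 3990 CPM in Myh11-high barcodes, so the sum was higher than there in the Foxn1Lin female library only. In FB the sum was 1779, 2146 and 1999 CPM, and by the same 2-fold rule used for the members below 5 of the 12 were higher and 1, Anpep, was lower in the Dcn-low Myh11-0 class than in FB. Of the gate genes, Notch3 was detected in at least 98.2% of these barcodes and Cspg4 in 44.9%, 22.8% and 10.5%. Cspg4 was detected in 58.4%, 49.2% and 56.4% of Myh11-high barcodes and in 27.6%, 5.38% and 13.3% of the remaining Myh11-0 barcodes, so in the wild type male library its share in the Dcn-low class was not above that of the remaining ones. All 12 markers were detected in every library and 0 of them were at least 2-fold higher than in Myh11-high barcodes in every library, and the hypoxia-domain gene Higd1b among them was at 380, 94.2 and 53.0 CPM. Their 13 smooth muscle markers without Myh11 summed to 2059, 2882 and 2319 CPM, against 17148, 15867 and 12180 CPM in Myh11-high barcodes and 579.8, 1029 and 1098 CPM in FB. By the 2-fold rule 10 of 12 were lower than in Myh11-high barcodes and 5 of 9 higher than in FB (Acta2, Tagln, Lmod1, Sncg and Myl9), and Cnn1 and Actg2, genes of the contractile apparatus, were at 0 in all 3 libraries. FB markers summed to 1007, 1255 and 2004 CPM, EC markers to 268, 99.3 and 145 CPM, TEC markers to 286, 563 and 556 CPM, hematopoietic markers to 157, 20.4 and 14.5 CPM and Schwann and glial markers to 136, 10.2 and 65.0 CPM, while all 4 adipocyte markers were at 0. The part of these other transcripts in the members' levels was not tested. The class was not uniform either, since after each barcode was thinned to 2000 UMIs 7.14%, 43.6% and 51.8% of it had no UMI of any member, against 2.45%, 3.80% and 5.05% of Myh11-high barcodes.

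Of the 6 classes compared (Dcn-low and remaining Myh11-0, Myh11-high, FB, EC and TEC), both genes of the ATP-sensitive potassium channel were highest in the Dcn-low Myh11-0 barcodes in every library. Abcc9 was at 1278, 260 and 467 CPM there and at 153, 136 and 227 CPM in Myh11-high barcodes, which is a log2 ratio of 3.07 (2.81 to 3.32), 0.93 (0.59 to 1.26) and 1.04 (0.80 to 1.28), on average 1.68 ± 1.20 (SD, n = 3 libraries). Kcnj8 was at 784, 168 and 101 CPM against 56.4, 36.8 and 47.2 CPM, a log2 ratio of 3.80 (3.41 to 4.20), 2.19 (1.70 to 2.67) and 1.10 (0.55 to 1.62), on average 2.36 ± 1.36. The Foxn1Lin female library had by far the highest level of both genes in this class, and no interval of these ratios included 0. In the Dcn-low ratios here and below, the Pdgfra and Dcn limits were set on the Myh11-0 side only. In Myh11-high barcodes under the same limits (Dcn-low Myh11-high), Abcc9 was at 160, 58.7 and 146 CPM and Kcnj8 at 62.7, 26.2 and 37.1 CPM. Mural barcodes with 1 Myh11 UMI stood outside the 6 classes. In the wild type male library they held slightly more of both genes (530 CPM for Abcc9 and 106 CPM for Kcnj8).

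Outside mural barcodes the genes parted. Abcc9 was also present in FB, at 65.1, 183 and 210 CPM, so that its Dcn-low level lay 4.29, 0.51 and 1.15 log2 units above FB. Kcnj8 was at 8.11, 39.4 and 23.1 CPM in FB, 6.59, 2.09 and 2.13 log2 units below the Dcn-low level. In EC the levels were 64.0, 26.3 and 25.6 CPM for Abcc9 and 25.9, 8.19 and 5.90 CPM for Kcnj8. TEC had the lowest levels, at most 7.71 CPM for Abcc9 and 2.54 CPM for Kcnj8. Over the whole Myh11-0 gate, in which the Dcn-high barcodes outnumber the others, Abcc9 was at 316, 196 and 263 CPM and Kcnj8 at 163, 62.5 and 42.3 CPM, and the Kcnj8 log2 ratio to Myh11-high barcodes shrank to 1.53, 0.77 and -0.16.

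Abcc9 and Kcnj8 lie next to each other on chromosome 6, and both are read from the minus strand. In GENCODE vM21 on GRCm38, Kcnj8 spans chr6:142564837-142571614 and Abcc9 spans chr6:142587862-142702315, with 16247 bases and no annotated gene between them. Trpc6 spans chr9:8544142-8680741 on the plus strand. The windows from 250 bases before to 50 bases after the start of these 3 genes are shown because Abcc9 and Trpc6 were detected more often in Dcn-low Myh11-0 barcodes with Kcnj8 than in those without, as described next, and are RefSeq sequences on GRCm38.p6, given 5′ to 3′ on the strand of the gene. Capitals mark the motifs found on either strand among TGGGAA, a core bound by the Notch effector RBPJ, GGGCGG, a GC box, and the CArG box, the site of serum response factor. The Abcc9 window is chr6:142702225-142702524, the Kcnj8 window chr6:142571565-142571864 and the Trpc6 window chr9:8543892-8544191.
Abcc9: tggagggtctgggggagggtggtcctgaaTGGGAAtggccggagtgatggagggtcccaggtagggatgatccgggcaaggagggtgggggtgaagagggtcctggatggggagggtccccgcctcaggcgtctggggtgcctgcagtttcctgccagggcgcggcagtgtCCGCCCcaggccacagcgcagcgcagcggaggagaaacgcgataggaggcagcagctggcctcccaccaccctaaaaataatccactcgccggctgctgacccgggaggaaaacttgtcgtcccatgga
Kcnj8: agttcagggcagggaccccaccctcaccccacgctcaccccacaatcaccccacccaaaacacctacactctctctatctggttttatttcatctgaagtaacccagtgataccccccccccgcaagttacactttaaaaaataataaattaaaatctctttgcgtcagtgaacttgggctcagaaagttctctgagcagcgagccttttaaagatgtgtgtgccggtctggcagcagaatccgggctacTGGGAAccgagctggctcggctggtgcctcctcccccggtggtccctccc
Trpc6: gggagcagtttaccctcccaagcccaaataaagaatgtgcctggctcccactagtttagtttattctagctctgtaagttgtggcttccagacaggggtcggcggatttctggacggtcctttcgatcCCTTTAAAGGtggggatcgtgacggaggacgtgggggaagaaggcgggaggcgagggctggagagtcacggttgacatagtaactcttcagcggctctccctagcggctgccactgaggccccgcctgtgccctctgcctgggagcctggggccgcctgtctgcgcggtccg
TGGGAA occurs in the Abcc9 and the Kcnj8 window, where it begins 221 bases before the start and at the start itself. The Abcc9 window also holds the GC box, on the reverse strand, and the Trpc6 window holds a CArG box that begins 122 bases before the start. Over all 32851 windows of this length the shares with a match were 25.6% for TGGGAA, 35.7% for the GC box and 1.63% for the CArG box, and of 12 windows of the 9 members 5, 3 and 1 held them. Rgs5 was also detected more often with Kcnj8, and its window, which is not shown, holds none of these motifs. A match describes the letters of the window only.

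Within the Dcn-low Myh11-0 class Abcc9, Trpc6 and Rgs5 were detected more often in barcodes with Kcnj8. Abcc9 was detected in 54 of 54, 19 of 20 and 15 of 15 barcodes with a Kcnj8 UMI, and in 52.3%, 5.41% and 16.7% of those without. Trpc6 was detected in 59.3%, 75.0% and 86.7% of the Kcnj8-positive barcodes and in 36.4%, 2.70% and 11.9% of the others. Rgs5 was detected in 94.4%, 100% and 93.3% against 59.1%, 40.5% and 23.8%. In the Foxn1Lin female library the Kcnj8-positive barcodes were deeper (median 3728.5 against 2145 UMIs), whereas in both male libraries they were shallower (5168.5 against 7521 and 4784 against 6929 UMIs). The barcodes without Kcnj8 include those with no UMI of any member (7.14%, 43.6% and 51.8% of the thinned class). The part of depth or of this mixture in the shares was not tested. Kcnab1 was detected in 3 of 54, 1 of 20 and 2 of 15 Kcnj8-positive barcodes and in 18.2%, 13.5% and 2.38% of the others, so its direction differed between libraries.

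Abcc9 and Kcnj8 were also paired among Dcn-low Myh11-high barcodes, where Kcnj8 was rare. Abcc9 was detected in 15 of 16, 11 of 21 and 21 of 25 of the Kcnj8-positive barcodes and in 6.94%, 8.46% and 17.8% of the Kcnj8-negative ones. Trpc6 was detected in 13 of 16, 7 of 21 and 12 of 25 Kcnj8-positive barcodes against 22.2%, 21.5% and 26.9%. Its intervals overlapped in the Foxn1Lin male library (14.6% to 57.0% and 16.7% to 27.0%) and in the wild type male library (27.8% to 68.7% and 21.4% to 32.9%). Most Trpc6-positive barcodes of this class had no Kcnj8 UMI (48, 56 and 65). Rgs5 was detected in 16 of 16, 20 of 21 and 24 of 25 against 56.0%, 76.5% and 83.5%, with overlapping intervals in both male libraries. Kcnab1 was detected in 3 of 16, 16 of 21 and 11 of 25 Kcnj8-positive barcodes, against 90.7%, 89.2% and 90.1% of the negative ones. Its intervals overlapped in the Foxn1Lin male library. In FB, Abcc9 was detected in 64.9%, 81.5% and 83.8% of Kcnj8-positive barcodes and in 20.3%, 46.5% and 45.6% of the others. The Kcnj8-positive Dcn-low Myh11-high barcodes had a median of 6006, 6595 and 5792 UMIs, against 3947, 5668.5 and 6005 in the negative ones. In FB the medians were 7238, 10361 and 10075 against 7563, 9364 and 8243.5 UMIs. The part of depth in these shares was not tested.

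The ratio of Trpc6 between the Dcn-low Myh11-0 and the Myh11-high class had the smallest SD over libraries of the 9 members, although its level varied. Its level was 368, 196 and 356 CPM in Dcn-low Myh11-0 barcodes and 120, 66.1 and 139 CPM in Myh11-high barcodes, a log2 ratio of 1.61, 1.57 and 1.36 with intervals of 1.25 to 1.97, 1.15 to 1.97 and 1.07 to 1.65. The mean ratio was 1.51 ± 0.13 (SD, n = 3 libraries). In FB it was at 2.48, 24.5 and 24.9 CPM, in EC at 12.3, 7.56 and 3.96 CPM and in TEC at no more than 2.54 CPM. Both mural classes lay above FB by at least 2-fold in every library.

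Kcnq5 was a gene of both mural classes, with a level that depended strongly on the library. It was at 1366, 135 and 335 CPM in Dcn-low Myh11-0 barcodes and at 315, 105 and 215 CPM in Myh11-high barcodes, a log2 ratio of 2.12, 0.37 (-0.09 to 0.80) and 0.64. The interval of the Foxn1Lin male library included 0. In the remaining Myh11-0 barcodes Kcnq5 was at 21.1, 6.42 and 0.519 CPM, and in FB at 21.2, 9.82 and 4.81 CPM. EC held 85.9, 26.3 and 55.6 CPM, TEC 39.0, 16.3 and 42.1 CPM and uncalled droplets with 10 to 500 UMIs, which hold free RNA, 149.9, 85.2 and 37.5 CPM. Abcc9 was detected in 60 of 66, 14 of 18 and 20 of 21 Kcnq5-positive Dcn-low Myh11-0 barcodes.

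Kcnab1 had the opposite pattern and marked the Myh11-high barcodes. It was at 1534, 1127 and 1655 CPM there and at 106, 56.0 and 28.9 CPM in the Dcn-low Myh11-0 class, a log2 ratio of -3.86, -4.33 and -5.84 (mean -4.68 ± 1.03, n = 3 libraries). FB, EC and TEC held 6.56 to 20.3 CPM. Uncalled droplets had 16.3, 36.8 and 37.5 CPM, which in the wild type male library is above the Dcn-low Myh11-0 level. Among the channel members Kcnab1 alone was lower in the Dcn-low Myh11-0 class in every library, and the levels of both mural classes did not overlap.

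The RGS genes did not follow the channel genes as a group. Rgs5 was at 2415, 1163 and 881 CPM in Dcn-low Myh11-0 barcodes and at 1204, 2668 and 3694 CPM in Myh11-high barcodes. The log2 ratio was therefore 1.003 (0.88 to 1.13) in the Foxn1Lin female library and -1.20 (-1.34 to -1.06) and -2.07 (-2.22 to -1.92) in the Foxn1Lin male and the wild type male library. The mean, -0.75 ± 1.58 (SD, n = 3 libraries), hides this change of sign. Both mural classes stood far above FB, where Rgs5 was at 21.7, 31.8 and 31.7 CPM. EC held 296, 93.6 and 113 CPM and TEC 88.1, 131 and 243 CPM, while uncalled droplets had 128, 203 and 242 CPM.

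Rgs4, a close neighbour of Rgs5, was at 323, 183 and 176 CPM in Dcn-low Myh11-0 barcodes and at 402, 299.5 and 407 CPM in Myh11-high barcodes. The log2 ratio was -0.32 (-0.63 to -0.01), -0.71 and -1.21, below 0 in every library. In FB it was at 5.75, 6.41 and 8.65 CPM, in EC at 27.2, 28.0 and 38.5 CPM and in TEC at 48.9, 51.0 and 89.1 CPM, and uncalled droplets had 37.4, 57.2 and 74.4 CPM. Rgs4 spans chr1:169741477-169747642 on the minus strand and Rgs5 spans chr1:169655501-169695813 on the plus strand, with 45663 bases and no annotated gene between them. In the Dcn-low Myh11-0 class Rgs5 was detected in 89.6%, 82.6% and 81.8% of Rgs4-positive barcodes and in 68.0%, 47.1% and 17.1% of the others. In Dcn-low Myh11-high barcodes the shares were 59.2%, 80.2% and 88.6% against 58.8%, 73.0% and 72.3%, nearly equal in the Foxn1Lin female library.

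Rgs6, which belongs to the RGS proteins that pair with the G beta 5 subunit, was at 787, 120 and 128 CPM in Dcn-low Myh11-0 barcodes and at 702, 540 and 1047 CPM in Myh11-high barcodes. Its log2 ratio was 0.16 (-0.04 to 0.37) in the Foxn1Lin female library, where the interval included 0, and -2.17 and -3.04 in the male libraries. FB held 18.5, 6.62 and 4.07 CPM, and EC and TEC held 6.13 to 30.6 CPM. In Dcn-low Myh11-high barcodes Rgs6 was detected in 87.4%, 84.3% and 96.9% of Kcnab1-positive barcodes and in 51.5%, 51.5% and 50.0% of the others. In the Dcn-low Myh11-0 class, with few Kcnab1-positive barcodes, Rgs6 was detected in 5 of 11, 5 of 6 and 1 of 3 of them against 59.8%, 19.6% and 18.5%, so the Foxn1Lin female library ran the other way.

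Rgs16 was also high in FB. It was at 199, 532 and 520 CPM in the Dcn-low Myh11-0 class, at 95.3, 492 and 393 CPM in Myh11-high barcodes and at 44.5, 312 and 215 CPM in FB. The log2 ratio between both mural classes was 1.06, 0.11 (-0.11 to 0.33) and 0.40. Dcn-low Myh11-high barcodes held 104, 310 and 390 CPM. In the Foxn1Lin male library the intervals of the Dcn-low classes, 462 to 609 CPM without Myh11 and 284 to 337 CPM with it, did not overlap. Rgs16 was lower in the Foxn1Lin female library in every one of these classes, and it was also lower in the uncalled droplets of that library (35.1 CPM against 184 and 124 CPM).

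**Figure D2:**
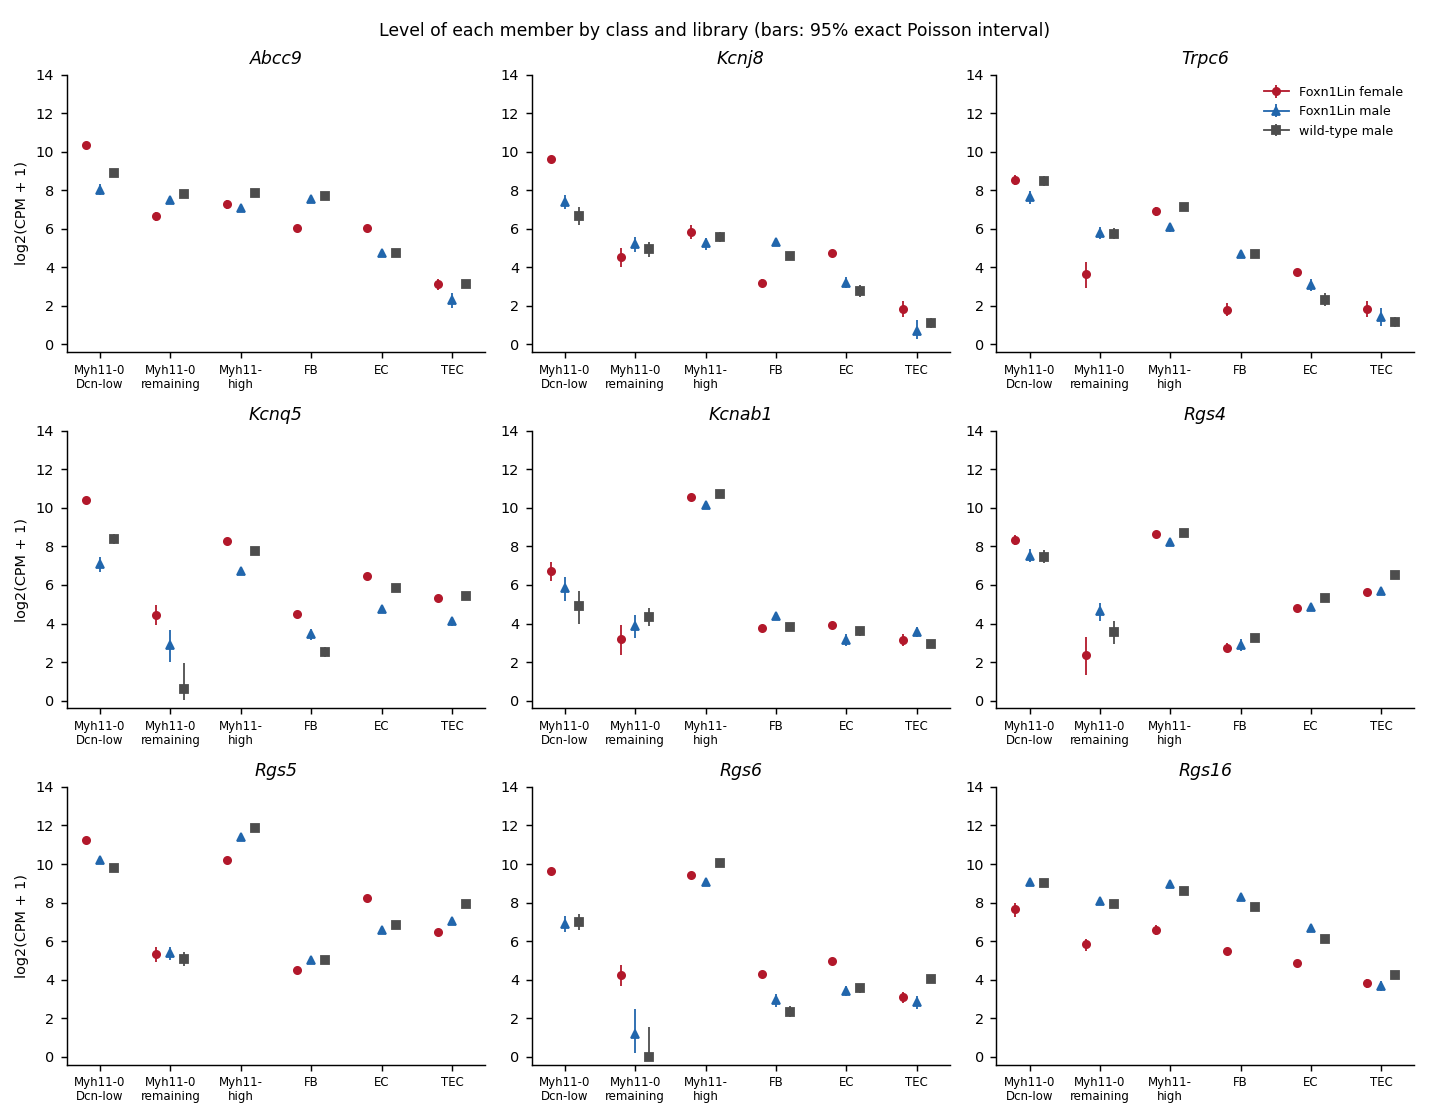
Level of the 9 members as log2(CPM + 1) (1 panel each, y axis) in 6 classes of barcodes, with 1 point per library and its 95% exact Poisson interval as a bar. Abcc9, Kcnj8 and Trpc6 lie highest in the Dcn-low Myh11-0 class in every library, Kcnab1 in the Myh11-high class, and Rgs16 is also high in FB.

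By a fixed rule, at least 2-fold apart with 1 CPM added in every library and at least 10 CPM in either class, all 9 members could be counted. Kcnj8 and Trpc6 were higher in the Dcn-low Myh11-0 than in the Myh11-high class, where 3.28% of all genes counted were, and Kcnab1 was lower, where 4.22% were. Against FB, 7 members were higher in the Dcn-low Myh11-0 class (all but Abcc9 and Rgs16, with 3.28% of all genes), and 6 in the Myh11-high class (Trpc6, Kcnq5, Kcnab1, Rgs4, Rgs5 and Rgs6, with 7.26% of all genes). These shares are given as background, since the members were chosen with such levels in view. With the whole Myh11-0 gate, 0 members were higher than in Myh11-high barcodes (5.82% of all genes) and 4 were lower, Kcnab1, Rgs4, Rgs5 and Rgs6 (6.01% of all genes), and 5 were higher than in FB, Trpc6, Kcnq5, Rgs4, Rgs5 and Rgs6 (0.572% of all genes). With the Dcn limit at 3000 CPM, 1 member in place of 2 was higher in the Dcn-low Myh11-0 than in the Myh11-high class. With the limits on both mural classes, Abcc9 too was at least 2-fold higher than in Dcn-low Myh11-high barcodes (160, 58.7 and 146 CPM) in every library.

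**Figure D3:**
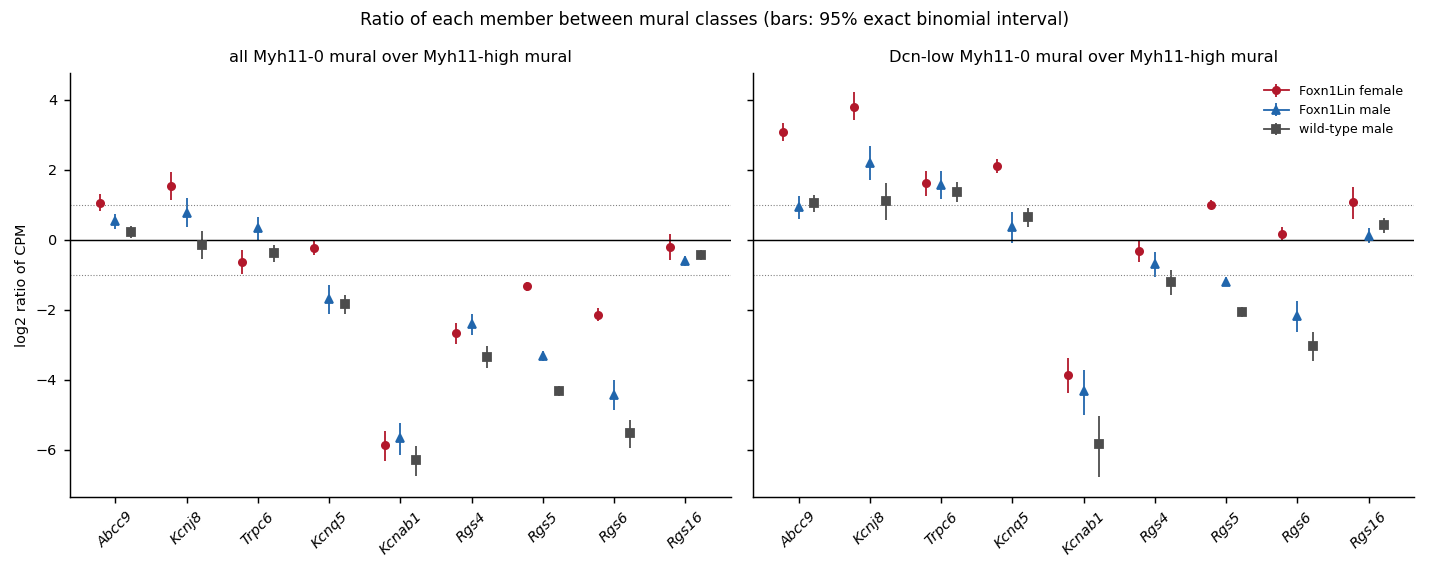
Log2 ratio of each member between Myh11-0 and Myh11-high mural barcodes, with all Myh11-0 barcodes on the left and the Dcn-low ones on the right, 1 point per library, its 95% exact binomial interval as a bar and dotted lines at 2-fold. Abcc9, Kcnj8 and Trpc6 lie above 0 in every library on the right, where Rgs5 runs from 1.003 to -2.07.

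The rule's limits were also read from either side. At the limit of the mural gate (Myh11 at 0), Rgs5 was at 47.5, 40.9 and 24.2 CPM in barcodes with 1 UMI of Notch3 and Cspg4, at 111, 160 and 54.9 CPM in those with 2 and at 843, 333 and 300.0 CPM in those with 3 or more. Abcc9 was at 97.0, 218 and 234 CPM just outside the gate, at 132, 191 and 229 CPM just inside and at 501, 199 and 294 CPM further in. Rgs5 was thus higher just inside the gate than just outside in every library, whereas Abcc9 was slightly lower in both male libraries. At the Myh11 limit, mural barcodes with 1 Myh11 UMI had 159, 175 and 158 CPM of Kcnab1 and those with 2 had 104, 475 and 176 CPM, and Abcc9 was at 585, 259 and 530 CPM with 1 UMI and at 928, 510 and 529 CPM with 2.

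The members' levels were also read along the Myh11 count. Among Dcn-low mural barcodes ordered into 6 bins from 0 to 20 or more Myh11 UMIs, Acta2, smooth muscle actin, ran from 211, 239 and 169 CPM to 7510, 8626 and 6655 CPM. Kcnab1 ran from 106, 56.0 and 28.9 CPM to 1946, 1565 and 2374 CPM. Abcc9 was low at the smooth muscle end. It was at 1278, 260 and 467 CPM at 0, at 1255, 166 and 1009 CPM at 1, at 925, 254 and 600 CPM at 2 to 4 and at 54.4, 25.8 and 172 CPM at 5 to 9, and at 10.9, 11.3 and 15.1 CPM at 20 or more, so in the wild type male library it was highest at 1 UMI and not at 0. The largest drop in CPM between neighbouring bins lay between 2 to 4 and 5 to 9 Myh11 UMIs for Abcc9 in all 3 libraries. Kcnj8 was at 784, 168 and 101 CPM at 0, at 635, 72.6 and 245 CPM at 1, at 378, 102 and 159 CPM at 2 to 4 and at 0, 11.7 and 35.3 CPM at 5 to 9. Kcnj8 too was highest at 1 UMI in the wild type male library. Within the Myh11-high range both genes were highest at 2 to 4 UMIs in every library.

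Other members peaked in the middle of this order. Rgs16 was highest at 2 to 4 Myh11 UMIs (444, 932 and 964 CPM) and lowest at 20 or more (17.5, 82.3 and 96.3 CPM). Rgs5 was highest at 2 to 4 UMIs in the Foxn1Lin female library (2786 CPM) and at 5 to 9 in the male libraries (4583 and 6397 CPM), and at 20 or more it was at 800.4, 1847 and 4636 CPM. Kcnq5 was highest at 1 UMI in all 3 libraries (1500, 290.5 and 807 CPM) and was at 245, 66.2 and 61.5 CPM at 20 or more. Rgs4 was highest at 10 to 19 or 20 or more UMIs (469, 471 and 603 CPM), whereas Rgs6 was nearly level in the Foxn1Lin female library (674 to 919 CPM) and ran from 120 and 128 CPM to 715 and 1186 CPM by 2 to 4 UMIs in the others. The bins held 26 to 101 barcodes each, and a deeper barcode more easily reaches a high Myh11 count.

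**Figure D4:**
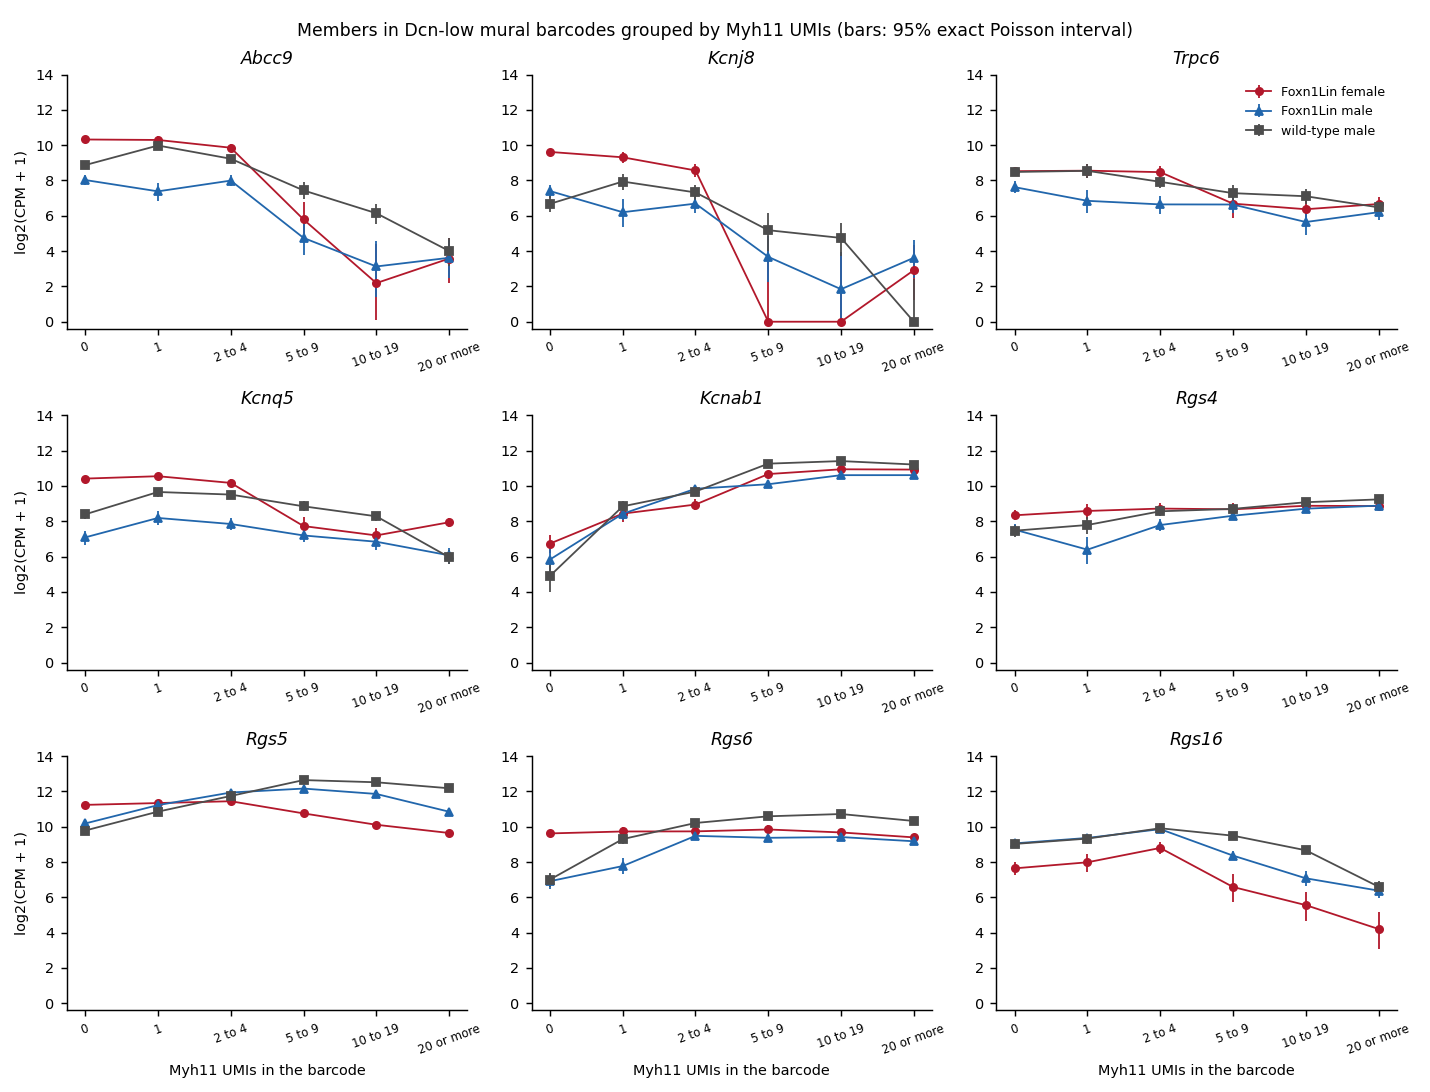
Level of the members as log2(CPM + 1) in Dcn-low mural barcodes (y axis) against the number of Myh11 UMIs in the barcode (x axis, 6 bins), with 1 line per library and 95% exact Poisson intervals as bars. Kcnab1 is lowest without Myh11, Abcc9 and Kcnj8 are low from 5 UMIs on, and Rgs16 is highest at 2 to 4 UMIs.

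Shares of barcodes with a UMI were compared next. After thinning to 2000 UMIs, Kcnj8 was detected in 61.4%, 25.5% and 16.1% of Dcn-low Myh11-0 barcodes, in 6.12%, 4.75% and 6.94% of Myh11-high barcodes and in 1.86%, 6.87% and 4.11% of FB. In TEC, which should lack the gene, the share was 0.333%, 0% and 0.0841%, and 0 of 510 barcodes allow a share with a UMI of up to 0.588%, taking 3 barcodes as the floor. Unthinned, the shares were 55.1%, 35.1% and 26.3% in the Dcn-low Myh11-0 class at a median of 2929.5, 6240 and 6519 UMIs and 2.28%, 0.758% and 1.07% in TEC at 12981.5, 13854 and 18989 UMIs. Abcc9 was detected in 75.7%, 32.7% and 37.5% of Dcn-low Myh11-0, 10.6%, 13.0% and 20.2% of Myh11-high and 2.00%, 0.588% and 1.18% of TEC barcodes after thinning, and in 78.6%, 36.8% and 38.6%, 15.3%, 19.9% and 33.5%, and 5.86%, 2.65% and 4.79% before. In FB the Abcc9 share was 10.7%, 28.3% and 27.4% after thinning, not below that of Myh11-high barcodes in any library. It lay below that of the Dcn-low Myh11-0 class in every library. In the male libraries, however, it lay closer, that class held only 55 and 56 thinned barcodes, and the gaps were not tested. Before thinning it was 22.4%, 55.5% and 51.3%, which in both male libraries is above the Dcn-low Myh11-0 share. Kcnab1 was detected in 77.6%, 70.6% and 68.1% of Myh11-high and 8.57%, 10.9% and 3.57% of Dcn-low Myh11-0 barcodes after thinning, and in 82.7%, 82.9% and 74.9% and 11.2%, 10.5% and 5.26% before.

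Over the whole Myh11-0 gate the thinned shares were lower than in its Dcn-low barcodes for 8 members in every library and for Kcnab1 in the Foxn1Lin libraries but not in the wild type male library, where they were 4.00% and 3.57%. The shares over the whole gate were 30.1%, 24.9% and 32.4% for Abcc9, 19.3%, 13.5% and 7.60% for Kcnj8, 11.6%, 13.0% and 10.4% for Trpc6, 17.8%, 6.49% and 6.00% for Kcnq5 and 4.25%, 4.32% and 4.00% for Kcnab1. They were 24.3%, 17.8% and 9.60% for Rgs5, 12.4%, 7.03% and 7.20% for Rgs4, 15.1%, 5.41% and 4.00% for Rgs6 and 9.27%, 30.8% and 28.4% for Rgs16. The levels over this gate were 77.2, 82.5 and 106 CPM for Trpc6, 269, 32.3 and 59.8 CPM for Kcnq5, 26.1, 22.0 and 20.9 CPM for Kcnab1, 62.7, 55.9 and 40.1 CPM for Rgs4, 476, 266 and 184 CPM for Rgs5, 159, 25.1 and 22.6 CPM for Rgs6 and 82.2, 325 and 291 CPM for Rgs16.

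The shares of the RGS genes did not share 1 order between both mural classes. Rgs5 was detected in 80.0%, 54.5% and 35.7% of Dcn-low Myh11-0 and 51.8%, 69.0% and 70.3% of Myh11-high barcodes after thinning, with the same change of sign as its level, and in 10.5%, 9.80% and 14.6% of TEC. Before thinning these shares were 78.6%, 61.4% and 42.1%, 57.6%, 75.1% and 76.5%, and 29.2%, 23.7% and 32.9%. Rgs4 was detected in 42.9%, 16.4% and 26.8% against 45.3%, 35.8% and 47.0%, and Rgs6 in 48.6%, 18.2% and 17.9% against 61.2%, 59.2% and 69.4% (before thinning 49.0%, 40.4% and 38.6% against 62.0%, 62.6% and 65.8%, and 58.2%, 26.3% and 19.3% against 79.6%, 76.0% and 78.4%). Rgs16 was detected in 12.9%, 32.7% and 28.6% of Dcn-low Myh11-0 barcodes and in 7.59%, 30.7% and 23.4% of FB, so its share in the class was close to that in FB (before thinning 12.2%, 36.8% and 31.6% against 16.1%, 53.3% and 44.0%). A mean of 4.20, 2.31 and 2.21 of the 9 members was detected per thinned Dcn-low Myh11-0 barcode, against 3.04, 3.07 and 3.42 per Myh11-high barcode and 0.304, 0.746 and 0.635 per FB.

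**Figure D5:**
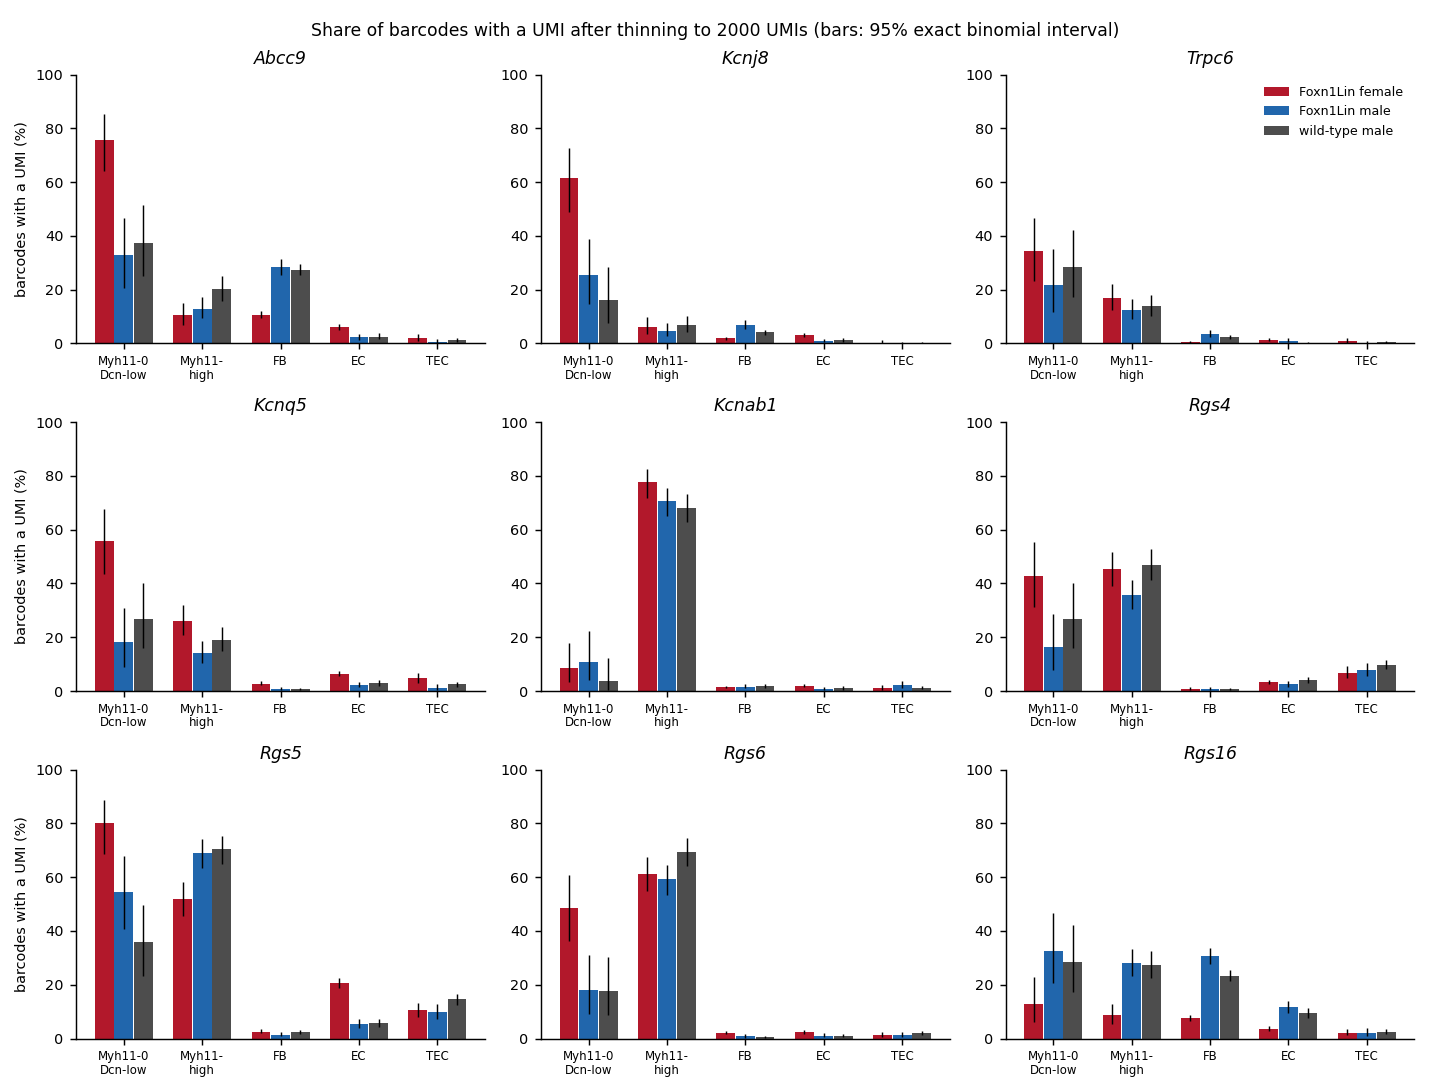
Share of barcodes with at least 1 UMI of each member (1 panel each, y axis in percent) after thinning to 2000 UMIs, in 5 classes and 3 libraries, with 95% exact binomial intervals as bars. Kcnj8 reaches 61.4% in the Dcn-low Myh11-0 class of the Foxn1Lin female library and at most 6.94% in any other class, and Kcnab1 is at least 68.1% in Myh11-high barcodes and at most 10.9% elsewhere.

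Other channel and RGS genes, and the receptors upstream of them, were tested between the whole Myh11-0 gate and the Myh11-high barcodes with edgeR's quasi-likelihood test on summed counts, with the library as a block and Benjamini-Hochberg adjustment over all 11093 genes tested. Of 86 related genes 41 were tested, and 8 were higher and 22 lower in the Myh11-0 barcodes, where 14.6% of all genes tested were higher and 15.1% lower. Without the library block 3 were higher and 20 lower. Their median log2 fold change was -0.95, against 0.01 over all genes. These calls are for the whole gate, in which 6 of 7 FB markers were also higher, and not for the Dcn-low barcodes. The part of FB transcripts in them was not tested.

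The other potassium channels were mostly lower. Of 11 voltage-gated, calcium-activated and leak potassium channels and subunits tested 8 were lower and 1 was higher in Myh11-0 barcodes. Kcna5, which encodes Kv1.5, had a log2 fold change of -5.61 (SE 0.41, adjusted p = 0.00015 by edgeR) and the leak channel gene Kcnk3 one of -5.41 (SE 0.33, adjusted p = 7.4e-05). Kcnmb1, the beta subunit of the large-conductance calcium-activated channel, was lower by a log2 fold change of -4.62 (SE 0.42). Kcnq3 alone of the 11 was higher, at 1.34 (SE 0.24, adjusted p = 0.0057). Of 3 inward rectifiers tested besides Kcnj8, Kcnj15 was higher (2.62, SE 0.49) and Kcnj2 lower (-3.65, SE 0.43), and Kcnj12 had no UMI in Myh11-0 barcodes, so its level in Myh11-high barcodes was at least 16.9-fold, 19.7-fold and 16.5-fold higher, with 3 counts per library as the floor.

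Calcium entry and release genes were also mostly lower, whereas the RGS list was divided. Of 17 cation, calcium and chloride channels tested 11 were lower and 1 was higher in Myh11-0 barcodes. The T-type calcium channel gene Cacna1h was lower by -5.73 log2 units (SE 0.35), and Ryr2, the ryanodine receptor, had no UMI in Myh11-0 barcodes and was at least 108-fold, 51.6-fold and 91.4-fold higher in Myh11-high barcodes. Of 10 other genes of the RGS list tested, which also holds partners of RGS proteins, 5 were higher (Rgs3, Rgs7, Rgs10, Rgs12 and Rgs20, by 1.09 to 2.39 log2 units) and 1 was lower, Rgs7bp (-3.90, SE 0.47, adjusted p = 0.0010 by edgeR), which encodes the partner that anchors Rgs6 and its relatives at the membrane, and 4 did not pass the test. Of 21 vasoactive receptor genes tested 3 were higher and 9 lower.

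Against FB, 4 of 40 related genes tested were higher in Myh11-0 barcodes and 0 were lower by edgeR, where 1.38% of 13217 genes tested were higher and 1.34% lower. 17 of the 40 had an unadjusted p under 0.05, and DESeq2 called 5 higher and 0 lower. The 4 genes were Kcnq3 (1.81, SE 0.16), Rgs2 (1.76, SE 0.19), the calcium-activated chloride channel gene Ano1 (1.65, SE 0.17) and Cacnb2 (2.17, SE 0.30), with adjusted p from 0.0025 to 0.014. Of 21 vasoactive receptor genes tested, Ednrb, an endothelin receptor (3.08, SE 0.27), Agtr1a, the angiotensin receptor (1.82, SE 0.17), and both subunits of the nitric oxide receptor, Gucy1a1 and Gucy1b1 (2.80, SE 0.15, and 1.88, SE 0.29), were higher and Npr1 was lower. The count of 4 related genes was 13 without the Foxn1Lin female library (12 higher and 1 lower), 7 without the Foxn1Lin male and 1 without the wild type male library. It was 0 without the library block and 9 with overlapping gates and every mural barcode with a Pdgfra UMI removed. The 141, 90 and 152 Myh11-0 barcodes that met the FB gate stood in both arms.

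In the Dcn-low Myh11-0 barcodes, for which no test was run, the 2-fold rule placed Kcnq3, Rgs7 and Rgs20 above Myh11-high barcodes among the related genes and 12 genes below them, of 35 related genes that could be counted, where 3.28% of all genes counted were higher and 4.22% lower. Kcnq3 was at 33.2, 61.1 and 313 CPM there against 9.12, 12.3 and 38.5 CPM. Among the receptors, Ednrb was at 549, 265 and 234 CPM against 130, 97.7 and 101 CPM and Agtr1a at 217, 91.6 and 98.7 CPM against 29.0, 16.2 and 38.5 CPM. Over the whole gate, however, Ednrb was lower than in Myh11-high barcodes (-0.81, SE 0.19, adjusted p = 0.016 by edgeR), and Agtr1a had a log2 fold change of 0.11 (SE 0.31, adjusted p = 0.82). Rgs7bp was at 3.01, 22.9 and 74.7 CPM against 380, 215 and 246 CPM, and Ano1 was at 383, 359 and 472 CPM against 267, 308 and 510 CPM, with overlapping levels.

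Across 5 classes in 3 libraries, with the whole Myh11-0 gate as 1 class (15 points that share libraries and depth), the genes other than the members most like each member in log2(CPM + 1) were found by Pearson's r among 10874 genes, as a description. Abcc9 was most like Emilin1, Zeb2 and Cyth3 (0.95 to 0.97), Kcnj8 most like Vtn, Agtr1a and Cacng7 (0.92 to 0.94) and Trpc6 most like Bmp5 and Ano1 (each 0.96). Kcnab1 was most like Flna, Acta2 and Txndc11 (each 0.98) and Rgs6 most like Olfr558, Myl9 and Itga7 (each 0.97). Kcnq5 was most like Inpp4b, Mapt and Stac (0.93 to 0.95), and Rgs4 had Arap2 and Slc20a2 among its most alike genes (each 0.96). Rgs5 was most like Ephx3, Id4 and Scn3a (0.91 to 0.92) and Rgs16 most like Adam9, Nr2f2 and Mosmo (0.95 to 0.96). Among the members the pair most alike was Abcc9 and Kcnj8 (0.95), followed by Rgs4 and Rgs5 (0.94), whereas Abcc9 and Rgs4 were at 0.06. With the Myh11-0 gate split by Dcn (18 points, 11039 genes) these values were 0.95, 0.95 and 0.21, and the genes named depended on the split, since among genes other than the members Abcc9 was then most like Plcl1, Dlc1 and Pdgfrb (each 0.94) and Kcnj8 most like Chn1, Agtr1a and Csnk1e (0.92 to 0.94).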

How the data were processed

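The deposited matrices hold UMI counts per gene and barcode, which the authors made with Cell Ranger 7.0.1 on mm10-2020-A (GRCm38), with reporter sequences added and reads in introns counted. The matrices of all barcodes name Cell Ranger 4 in their header, and all called barcodes hold identical counts in both. The submitters' processing notes name Cell Ranger 7.01 and the builds GRCm38.p5 and mm10. The deposited summaries give, as a percent of reads, a saturation of 52.1, 81.0 and 72.8 in the Foxn1Lin female, Foxn1Lin male and wild type male library. Whether counting used strand is not given in the sources used here, and Abcc9, Trpc6, Kcnab1, Rgs6 and Rgs16 overlap annotated genes on the opposite strand.

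Called barcodes with 1000 genes or fewer and at least 20% mitochondrial counts were removed, leaving 8478 of 8616, 3434 of 3583 and 5256 of 5478. Doublets were not removed. Removing the highest Scrublet scores (scanpy 1.11.5) up to the 3.9% multiplet rate in the labels was an alternative. Counts were summed per class and library, and CPM has exact Poisson and shares have exact Clopper-Pearson intervals. To compare shares, each barcode was thinned to 2000 UMIs and shallower ones were left out (28, 2 and 1 of the Dcn-low Myh11-0 barcodes). Sums were compared within libraries with edgeR 4.0.16 (quasi-likelihood, TMM, filterByExpr, library as a block, adjusted p under 0.05) in R 4.3.3, with DESeq2 1.42.0 as an alternative. With the library as a block, these p-values measure how far the class difference varied among 3 libraries, which also differ in sex or genotype. The edgeR step was checked on simulated data.

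The members, marker lists and related lists were chosen with earlier results of these data known. The Dcn-low split was added after the gate had been examined. Related genes were named if they had at least 20 CPM in a mural class in every library or passed a test, up to the 20 largest fold changes, and for each member the 3 genes with the highest r. Some genes that this rule names are not reported here. Levels are not compared between genes.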

Additional observations from a re-analysis of the deposited data

Results flagged for a closer look

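The Rgs5 log2 ratio between Dcn-low Myh11-0 and Myh11-high barcodes was 1.003 in the Foxn1Lin female library and -1.20 and -2.07 in the Foxn1Lin male and wild type male libraries, so its direction differed between libraries. The Abcc9 log2 ratio between Myh11-high barcodes and FB was 1.23, -0.42 and 0.11 in the same order. With 1 library per group neither difference between libraries was tested, and sex, genotype and library cannot be told apart.

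Among barcodes that were not called as cells, 18, 8 and 8 met the mural gate. They held 17, 44 and 22 UMIs of the members and entered no class above.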

How the results depend on the processing

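Of 369 alternative values of the members' log2 ratios, 343 moved by less than 1 SD between libraries. Of these, 108 left out 1 library, and leaving out 1 of 3 values cannot move their mean by 1 SD. Among the others, 235 moved by less than 1 SD and 26 by more. This SD was itself wide, up to 2.59 log2 units (Kcnj8, Dcn-low Myh11-0 over FB). The setting with overlapping gates removed dropped barcodes that met 2 gates and also every mural barcode with a Pdgfra UMI. It moved the mean log2 ratio between all Myh11-0 and Myh11-high barcodes from 0.60 to 1.49 for Abcc9 and from 0.71 to 1.85 for Kcnj8. The same setting turned this ratio from -0.23 to 0.92 for Trpc6, from -1.26 to 0.13 for Kcnq5 and from -0.41 to 0.07 for Rgs16. By edgeR, all genes called between these classes were 3290, and 1547 without the library block (628 in place of 1618 higher and 919 in place of 1672 lower, with 3 in place of 8 related genes higher). Without TMM scaling 60.0% of the calls were higher, against 49.2%. Against FB, the 4 related genes called became 10 without a filter on low counts, 9 with overlapping gates removed, 0 without the library block (7 at an unadjusted p under 0.05, and 5 with DESeq2 and the block) and 1 to 13 when each library was left out. The 359 genes of all called against FB became 1311 without the filter, 961 with overlapping gates removed, 2 without the block and 115 to 1189 when each library was left out (1189 without the Foxn1Lin female and 115 without the wild type male library). The causes were not tested. The 2 members at least 2-fold higher in Dcn-low Myh11-0 than in Myh11-high barcodes were 1 with Dcn under 3000 CPM, a limit chosen after the data were examined. With the limits on both mural classes, Abcc9 too was at least 2-fold higher in every library. The Dcn-low class held only 57 barcodes in each male library. Both class contrasts were paired within libraries by the library block.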
